A study of Mus musculus with 2 samples.

Results

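Id1, Id2 and Id3, which encode inhibitor of differentiation proteins, and Tcf3, Tcf4 and Tcf12, which encode the E proteins that they bind, were followed in single-cell transcriptomes of mouse muscle stem cells. The genes were taken by symbol from the feature tables, and all 6 were found among the 32285 counted features. A barcode was kept as a cell where 500 or more genes were detected and mitochondrial genes gave no more than 10% of its unique molecular identifiers (UMIs, the counted transcripts). The QSC library came from quiescent satellite cells sorted from uninjured tibialis anterior muscle. The ASC library came from activated satellite cells sorted from the same muscle 1.5 days after injection of CTX, cardiotoxin, which destroys muscle fibres. All animals were 8 weeks old and carried Pax7 CreERT2/+ ;Rosa26 mTmG/+, a Cre allele driven by Pax7 and a fluorescent reporter. The sorting gate is not named in the labels, and each library pooled several mice.

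E proteins are basic helix-loop-helix (bHLH) transcription factors made in many tissues. In muscle they pair with MyoD and myogenin, and the pairs bind E-boxes, short motifs in the control regions of muscle genes. Id proteins have the helix-loop-helix but lack the basic region that contacts DNA, so they take up E proteins in pairs that cannot bind. Id genes are known targets of bone morphogenetic protein (BMP) signalling and are known to be high in undifferentiated cells. Tcf4 is the E-protein gene of that symbol and not Tcf7l2, a gene of the Wnt pathway that is sometimes called by the same name.

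In the GENCODE M21 annotation of GRCm38, Id1 lies at chr2:152736251-152737410, Id2 at chr12:25093799-25097140, Id3 at chr4:136143497-136145755, Tcf3 at chr10:80409514-80433647 and Tcf12 at chr9:71842688-72111871. Tcf12 overlaps other annotated genes, so its counts are less certain. Promoters of 4 of the 6 genes (Id2, Id3, Tcf3 and Tcf12) were read from RefSeq sequence of GRCm38.p6. The 250 bases before each RefSeq start were searched on both strands for the E-box CANNTG, for CCAAT and for TATAA, which are 3 of the 8 motifs searched. The stretches below, each of 30 bases, hold the matches of Id2 and Id3, the member Id genes with the highest and lowest ratio between the libraries, and an E-box each of Tcf3 and Tcf12. Capitals mark the match.
Id2 E-box, chr12:25096271-25096300, minus strand: aatttgccacccCAGCTGggctctcgcccg
Id2 CCAAT on the opposite strand, chr12:25096234-25096263, minus strand: caccctacaggcATTGGctgcgaacgcgga
Id2 CCAAT, chr12:25096195-25096224, minus strand: agctcatactcaCCAATgggagaattcgcc
Id2 CCAAT, chr12:25096151-25096180, minus strand: ggagcccttccaCCAATggcaattcaggga
Id3 TATAA, chr4:136143781-136143810, plus strand: tagagaggactcTATAAgagtcggccgctg
Tcf3 E-box, chr10:80433672-80433701, minus strand: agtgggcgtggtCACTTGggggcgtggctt
Tcf12 E-box, chr9:72112040-72112069, minus strand: agatgctgccCAGCTGcgtccccgtcgcgg

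In Id3 the TATAA match began 29 bases before the start, and no CANNTG or CCAAT was found in the window. In Id2 the CCAAT matches began 159, 120 and 76 bases before the start and the E-box 196 bases before it. Over all 32851 promoters of the same length, CANNTG occurred in 66.2%, CCAAT in 33.8% and TATAA in 22.8%. The form CAGCTG, which is also counted under CANNTG, occurred in 13.0%. GENCODE lists longer transcripts of Id2 and Id3 that start further upstream, so these windows are not upstream of every annotated start. A match is a run of letters and not a binding site.

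There was 1 library per group, so no difference below has a replicate check, no test was made, and group and library cannot be told apart. The kept QSC cells numbered 516 (1162091 UMIs, median 2155 per cell) and the kept ASC cells 1468 (8895815 UMIs, median 3502). Levels are UMIs per 1000000 UMIs (CPM), summed over the cells of a library, so that fewer cells of a type and less RNA per cell cannot be told apart. They are given with exact Poisson 95% intervals, ratios carry exact conditional binomial intervals, and all intervals cover counting error only. Contractile-high barcodes, in which 10 myocyte or fibre genes took 5% of UMIs or more, were 20.2% of QSC and 64.0% of ASC barcodes. This is a range of a score and not a type, and 1 QSC and 29 ASC barcodes lay near the limit, between 4% and 6%. The cells left after removing these and the clusters named as non-muscle types are called contractile-low muscle cells, 370 in QSC and 418 in ASC. They were a mixture, and different clusters held most of them, with 237 QSC cells in a quiescent-satellite-like cluster, whose leading genes include Fosb and Egr1 of the early response, and 238 ASC cells in an unnamed cluster. Within this class the satellite cell gene Pax7 stood at 214 CPM in QSC and 29.7 CPM in ASC, and the differentiation gene Myog at 34.3 and 946 CPM. The libraries shared 4 deposited barcodes, of which 2 were kept in both.

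Id3 was by far the most frequent of the 6 transcripts in quiescent cells. Among contractile-low muscle cells it was 4.85-fold lower in ASC, while Id2 was nearly level and Id1 lay between them. Among contractile-low muscle cells Id3 stood at 2509 CPM in QSC (2124 UMIs, 95% interval 2403 to 2618) and 518 CPM in ASC (2741 UMIs, 499 to 537), a log2 ratio of -2.28 (-2.36 to -2.19). Id1 stood at 228 CPM in QSC (193 UMIs) and 148 CPM in ASC (785 UMIs), a log2 ratio of -0.62 (-0.85 to -0.39). Id2 stood at 250.4 CPM in QSC (212 UMIs) and 279.5 CPM in ASC (1480 UMIs), a log2 ratio of 0.16 (-0.05 to 0.37). Without the barcodes shared by the libraries the Id2 ratio was 0.23 (0.02 to 0.45), an interval above 0. Thus 3 genes of the same family took 3 different courses, and the intervals of their ratios did not overlap. The remaining family member Id4, counted for comparison, was scarce, at 39.0 CPM in QSC (33 UMIs) and 3.21 CPM in ASC (17 UMIs), a log2 ratio of -3.60 (-4.54 to -2.72).

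Among the E-protein genes, Tcf4, which lies on chromosome 18, was the most frequent and the only one with a lower level in ASC. Tcf4 stood at 285 CPM in QSC (241 UMIs) and 102 CPM in ASC (538 UMIs), a log2 ratio of -1.49 (-1.71 to -1.26), or 2.80-fold lower. Tcf3 stood at 41.3 CPM in QSC (35 UMIs) and 60.6 CPM in ASC (321 UMIs), a log2 ratio of 0.55 (0.05 to 1.10). Tcf12, which encodes the E protein HEB, stood at 23.6 CPM in QSC (20 UMIs) and 46.1 CPM in ASC (244 UMIs), a log2 ratio of 0.96 (0.31 to 1.70). The QSC counts of Tcf3 and Tcf12 were small, so their ratios are the least precise of the 6. With every cell weighing the same in place of summed UMIs, the contractile-low log2 ratio was -1.63 for Id3 and -0.95 for Tcf4, so that Tcf4 was then less than 2-fold lower. Levels of different genes in 3' data count transcript ends and are not corrected for how well each end is captured.

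**Figure D1:**
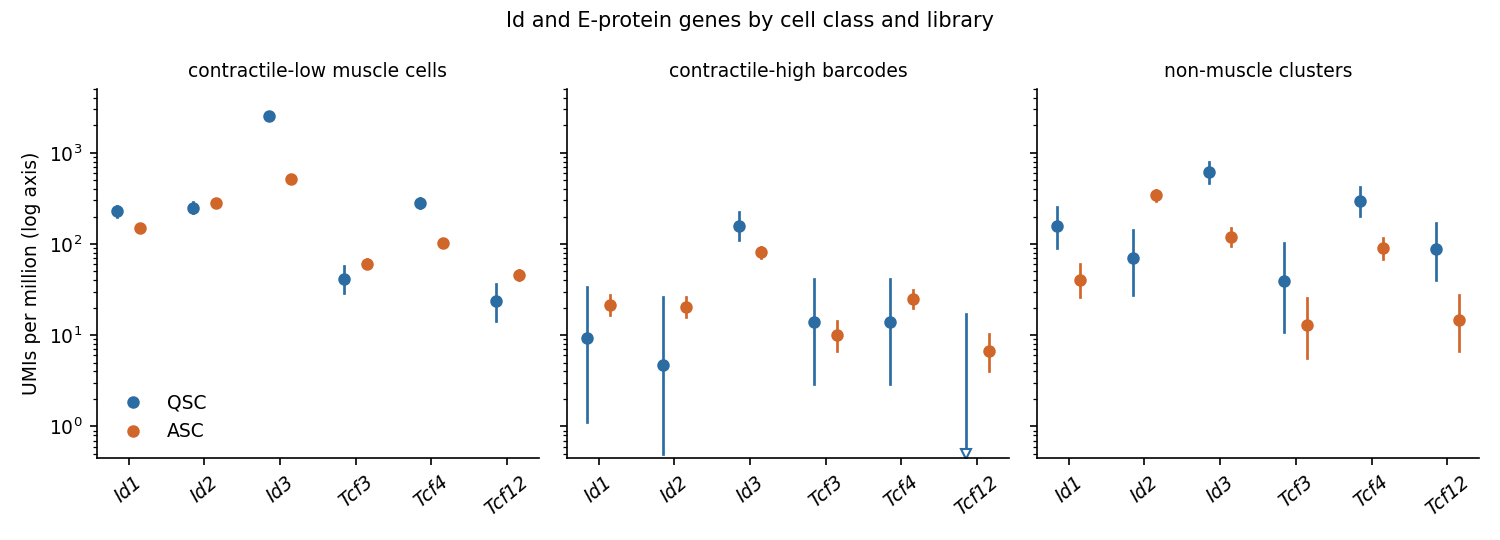
UMIs per 1000000 UMIs of each gene (log axis) in QSC (blue) and ASC (orange), with exact Poisson 95% intervals as lines, in 3 cell classes. An open triangle marks a count of 0. In contractile-low muscle cells the Id3 points stand at 2509 and 518 CPM, and all 6 genes are lower in contractile-high barcodes.

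Over all kept cells the order was the same for the Id genes. Id3 stood at 1910.4 CPM in QSC and 344 CPM in ASC, a log2 ratio of -2.47 (-2.55 to -2.40). Id1 stood at 182 and 98.4 CPM, a log2 ratio of -0.88 (-1.10 to -0.66), and Id2 at 189 and 196 CPM, a log2 ratio of 0.05 (-0.15 to 0.26). Tcf4 stood at 236 and 75.2 CPM, a log2 ratio of -1.65 (-1.85 to -1.44). The intervals of Tcf3 (36.1 and 40.4 CPM, -0.30 to 0.66) and Tcf12 (25 and 30.7 CPM, -0.26 to 0.90) spanned 0 in all kept cells and not in the contractile-low class. For Tcf3 the contractile-low interval also spanned 0 with a contractile limit of 2% (-0.05 to 1.06) or 10% (-0.01 to 1.04). It did so without the 2% deepest cells as well (-0.10 to 0.97). With every kept cell weighing the same, the estimates of Id2 (-0.60), Tcf3 (-0.58) and Tcf12 (-0.46) lay below 0, so no direction can be given for these 3 genes over all kept cells. So 2 of the 6 genes, Id3 and Tcf4, were at least 2-fold lower in ASC and 0 were at least 2-fold higher, in both sets of cells on the CPM scale. Tcf12 passed 2-fold higher in contractile-low cells under TMM scaling (1.28) and with a contractile limit of 2% (1.06). Of all 11189 genes with at least 20 UMIs in the kept cells, 23.0% were at least 2-fold lower and 16.0% at least 2-fold higher in ASC. Among the 9968 such genes of contractile-low muscle cells, the shares were 22.6% and 18.5%.

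The median gene with at least 20 UMIs in each library also differed, by a log2 ratio of -0.24 in all kept cells and -0.26 in contractile-low muscle cells. Relative to that median, the contractile-low log2 ratios were -2.01 for Id3, -1.22 for Tcf4, -0.36 for Id1, 0.42 for Id2, 0.81 for Tcf3 and 1.23 for Tcf12. On this scale the Id2 estimate was above 0, without an interval, whereas on the CPM scale its main interval spanned 0. Over all 9968 genes with at least 20 UMIs over both libraries the contractile-low median was -0.06, so the shift depends on the genes taken. In the study's methods cells are limited to 1% mitochondrial UMIs, which keeps 86 QSC cells, and 85 of them were contractile-high and 1 contractile-low. Under that limit Id3 stood at 139 CPM in QSC and 101 CPM in ASC, a log2 ratio of -0.47 (-1.05 to 0.18). The estimates for Id1 (0.80) and Tcf4 (0.76) then had the opposite sign, from 4 and 3 QSC UMIs, and Id2 stood at 1.69. The differences given above for quiescent cells therefore rest on cells with 1% to 10% mitochondrial UMIs.

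**Figure D2:**
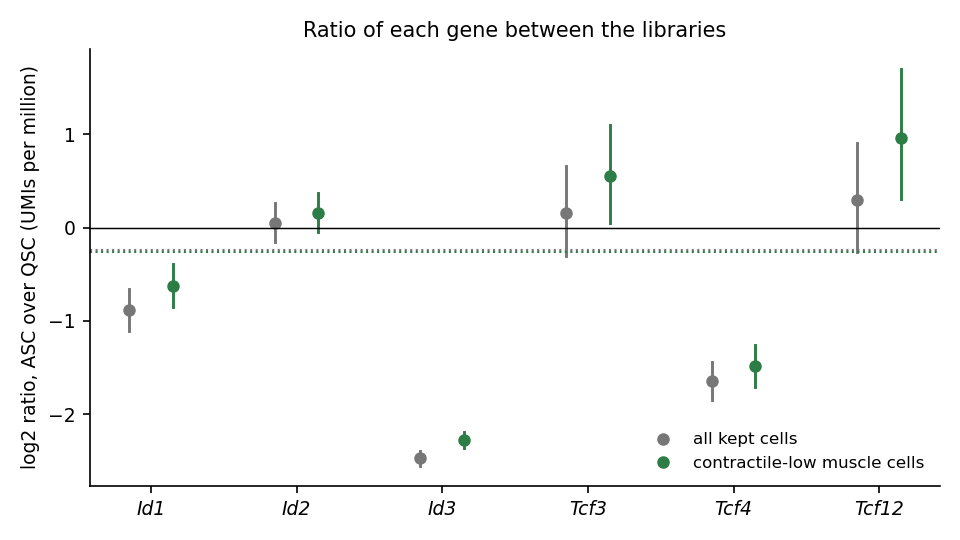
Log2 ratio of ASC over QSC for each gene in all kept cells (grey) and contractile-low muscle cells (green), with 95% counting intervals as lines. Dotted lines mark the median gene of each set (-0.24 and -0.26), and Id3 lies lowest in both sets at -2.47 and -2.28.

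At equal depth, fewer ASC cells held Id3 and they held fewer of its UMIs. With each contractile-low cell thinned to 1200 UMIs, Id3 was found in 80.3% of QSC cells (294 of 366, Clopper-Pearson 95% interval 75.9 to 84.3) and 43.9% of ASC cells (181 of 412, 39.1 to 48.9). At least 2 Id3 UMIs were found in 63.9% of QSC cells and 22.6% of ASC cells, with a highest value of 15 in QSC and 11 in ASC. Tcf4 was found in 29.2% of QSC cells and 14.6% of ASC cells. The other members had overlapping intervals: Id1 was found in 19.9% and 15.3%, Id2 in 19.7% and 23.1%, Tcf3 in 5.74% and 7.52%, and Tcf12 in 3.01% and 4.85%. The thinning left out 4 QSC and 6 ASC cells. Without it the median depths were 2221.5 and 8400.5 UMIs, Id3 was found in 88.6% of QSC and 78.0% of ASC cells with a mean of 5.74 and 6.56 UMIs per cell, and Tcf4 in 45.4% and 58.9%. Id1 was then found in 30.3% and 46.2%, Id2 in 28.6% and 64.1%, Tcf3 in 8.92% and 37.6%, and Tcf12 in 5.14% and 34.4%. The thinned values are therefore levels relative to all UMIs of a cell, not transcripts per cell.

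As a background for these shares, contractile-high barcodes at the same depth held Id3 in 15.6% of 90 QSC and 9.02% of 854 ASC barcodes. Tcf4 was found in 1.11% and 4.33% of them, and Id2 in 0 of 90 QSC barcodes (Clopper-Pearson interval 0 to 4.02, and 3.33% by the limit of 3 counts) and 1.52% of ASC barcodes. Median depths there were 1830.5 and 2893 UMIs. In contractile-low cells the shares of Id1, Id2, Id3 and Tcf4 stood above these in both libraries, and those of Tcf3 and Tcf12 did so in ASC. For Tcf3 the QSC share of 5.74% (3.59 to 8.64) overlapped the 2.22% of contractile-high barcodes (0.270 to 7.80). The QSC share of Tcf12 (3.01%, 1.51 to 5.31) likewise overlapped the 0 of 90 contractile-high barcodes (0 to 4.02), so the log2 ratio of Tcf12 rests on a QSC level that was not separated from those barcodes at this depth.

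In ASC, cells with Id3 more often held the other Id transcripts as well. Id1 was found in 22.1% of 181 thinned ASC cells with Id3 (16.3 to 28.9) and 9.96% of 231 without it (6.42 to 14.6). Id2 was found in 30.4% (23.8 to 37.6) and 17.3% (12.7 to 22.8) of the same cells. In QSC the intervals overlapped, with Id1 in 20.7% of 294 cells with Id3 and 16.7% of 72 without it. Myog, the gene of myogenin, went the other way in ASC, found in 13.3% of cells with Id3 (8.68 to 19.1) and 32.9% without it (26.9 to 39.4). Myod1 was found in 37.6% and 29.4% of these ASC cells, with overlapping intervals.

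The balance of inhibitor and partner transcripts was lower in ASC, and the direction rested on Id3. Summed Id1, Id2 and Id3 UMIs were 7.68 times the summed Tcf3, Tcf4 and Tcf12 UMIs in QSC (2651 over 345, 95% interval 6.87 to 8.62) and 4.37 times in ASC (5680 over 1301, 4.11 to 4.64). Among contractile-low muscle cells the ratios were 8.54 in QSC and 4.54 in ASC. Without Id3 the order turned: Id1 and Id2 together were 1.37 times the E-protein UMIs in QSC (1.17 to 1.59) and 2.05 times in ASC (1.91 to 2.21). Without Tcf4, the Id UMIs were 46 times those of Tcf3 and Tcf12 in QSC (35.2 to 61.2) and 8.86 times in ASC (8.12 to 9.68). A ratio of transcripts gives no ratio of proteins.

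The composition of both sides was more even in ASC. Id3 made up 84.0% of the Id UMIs of contractile-low QSC cells and 54.8% of those of ASC cells, where Id2 took 29.6% and Id1 15.7%. Tcf4 made up 81.4% of the E-protein UMIs in QSC and 48.8% in ASC, where Tcf3 took 29.1% and Tcf12 22.1%.

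**Figure D3:**
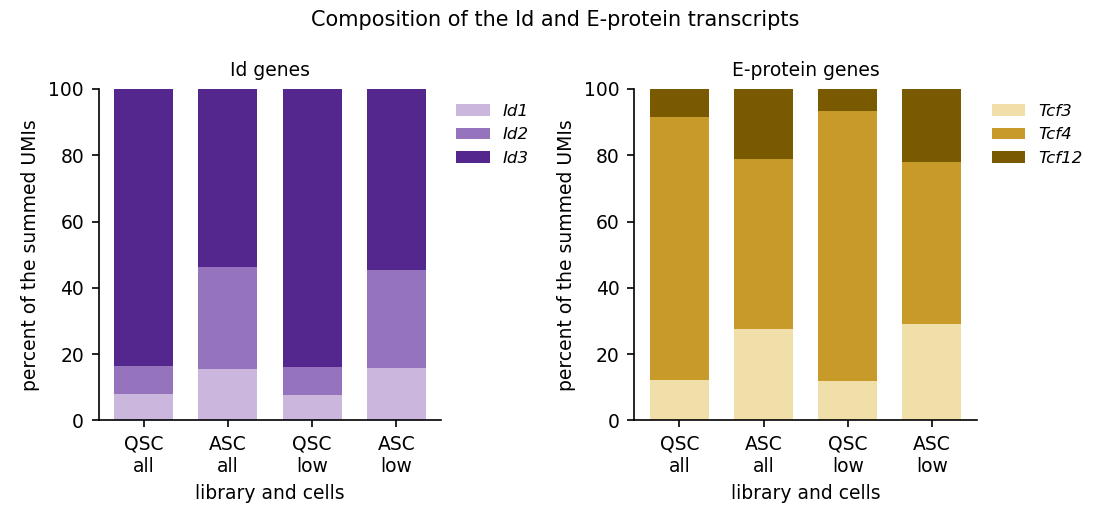
Percent of the summed Id UMIs (left) and the summed E-protein UMIs (right) taken by each gene, in all kept cells and in contractile-low muscle cells (low) of each library. In QSC low cells Id3 takes 84.0% and Tcf4 81.4%, against 54.8% and 48.8% in ASC low cells.

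Clusters of the merged libraries were formed without the 6 genes and showed where each transcript was found. Cluster 2, quiescent-satellite-like, held 237 QSC cells with Id3 at 2638 CPM and Tcf4 at 306 CPM. In the 5 other clusters where QSC cells were mainly contractile-low, Id3 stood between 1916 and 2965 CPM. Of these, clusters 0 and 4 were myocyte- or fibre-like by their markers over both libraries. They held 16 and 25 contractile-low QSC cells, and the highest value was that of cluster 0. In ASC, Id3 was 949.6 CPM in cluster 1 (241 cells, led by Bgn, C1qtnf3 and Igfbp7), 285 CPM in cluster 5 (147 cells, led by Rrm2 and with Cdc20 and Birc5 among its leading genes) and 185 CPM in cluster 10 (45 cells, led by Cdkn1c, Mymk and Myog). By its markers cluster 10 was activated satellite cell- or myoblast-like, but that marker list mixes cycling and differentiation genes. The 4 markers among its leading genes were Cdkn1c, Mymk, Myog and Actc1, so its levels are not those of activated satellite cells in general. Even the 10 ASC cells that fell in cluster 2 held Id3 at 924 CPM (94 UMIs), below every contractile-low cluster of QSC.

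Within ASC the 6 genes were compared between clusters 1, 5 and 10, which held most of the contractile-low cells and whose median depths were 5603, 17703 and 11986 UMIs. Levels are over all cells of a cluster. Contractile-low cells were 238 of 241 in cluster 1, 103 of 147 in cluster 5 and 44 of 45 in cluster 10. The rest were contractile-high barcodes, and their part in the ratios was not tested. Id2 stood at 325 CPM in cluster 1 and 287 CPM in cluster 5 but at 48.8 CPM in cluster 10 (29 UMIs), a log2 ratio of cluster 10 over cluster 1 of -2.73 (-3.32 to -2.20). Id3 differed from cluster 1 both in cluster 5, by -1.74 (-1.86 to -1.62), and in cluster 10, by -2.36 (-2.65 to -2.08). Id1 was the most even, at 172, 136 and 104 CPM in clusters 1, 5 and 10. So cluster 5 resembled cluster 1 in Id2 and lay nearer to cluster 10 in Id3.

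The E-protein genes were arranged differently. Tcf12 was highest in cluster 10, at 92.6 CPM (55 UMIs), against 44.6 CPM in cluster 1 and 35.3 CPM in cluster 5, a log2 ratio of cluster 10 over cluster 1 of 1.05 (0.53 to 1.56). Tcf3 was highest in cluster 5, at 70.3 CPM (193 UMIs), against 48.4 CPM in cluster 1 and 33.7 CPM in cluster 10. Tcf4 was lowest in cluster 5, at 49.5 CPM, against 169 CPM in cluster 1 and 115 CPM in cluster 10. Thus Id3 and Tcf4 were the most frequent Id gene and E-protein gene in clusters 1 and 10, while in cluster 5 Id2 and Id3 were level and Tcf3 was the most frequent E-protein gene. In cluster 10 the intervals of Tcf4 (88.9 to 145) and Tcf12 (69.8 to 121) overlapped, so their order there is not settled.

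**Figure D4:**
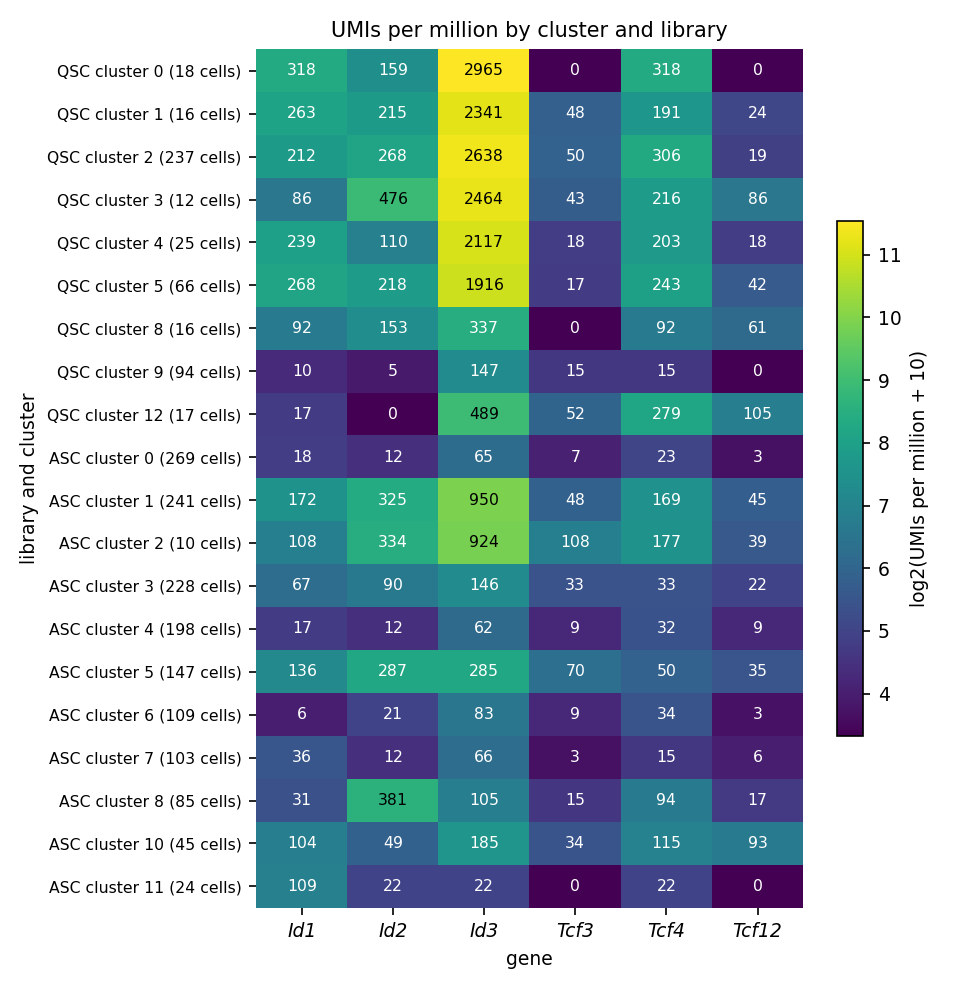
UMIs per 1000000 UMIs of each gene (printed in the cell, colour on a log2 scale after adding 10) in each cluster of each library with at least 10 cells. QSC rows 0 to 5 hold Id3 between 1916 and 2965, the ASC rows 0, 4, 6 and 7 between 62.3 and 82.8, and ASC cluster 8 has its highest value for Id2.

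Outside muscle, the macrophage/monocyte-like cluster 8 held Id2 at 381 CPM in ASC (208 UMIs in 85 cells), above the 279.5 CPM of contractile-low muscle cells. Id2 was found in 28.9% of 83 such cells after thinning, while Id3 was at 105 CPM, Id1 at 31.2 CPM and Tcf4 at 93.5 CPM. The fibroblast-like cluster 12 held Id3 at 489 CPM and Tcf4 at 279 CPM in 17 QSC cells. Over all non-muscle clusters, Id2 stood at 69.3 CPM in QSC (7 UMIs) and 341 CPM in ASC (209 UMIs), and these clusters held 42 QSC and 115 ASC cells. Contractile-high barcodes held little of any member: Id3 was at 159 CPM in QSC and 80.7 CPM in ASC, and each of the other genes had 0 to 3 UMIs in QSC and stood between 6.64 and 25.2 CPM in ASC.

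Marker genes of other cell types also differed within contractile-low muscle cells. The summed 8 fibroblast markers stood at 4285 CPM in QSC and 987 CPM in ASC (Pdgfra at 0 in ASC), the 7 smooth muscle or pericyte markers at 515 and 1279.6 CPM, the 5 erythroid markers at 131 and 1679.7 CPM, the 5 tenocyte markers at 8.27 and 48.4 CPM, the 6 Schwann cell markers at 217 and 139 CPM, and the 10 macrophage or monocyte markers at 65.0 and 108 CPM, with Adgre1, Ccr2, Ly6c2 and Fcgr1 at 0 in QSC. The 8 endothelial markers stood at 31.9 and 13.4 CPM, with Kdr, Flt1, Cldn5 and Emcn at 0 in QSC and Cdh5 at 0 in ASC. The median mitochondrial share was 4.89% in QSC and 2.30% in ASC. In the QSC fibroblast-like cluster Id3 stood at 489 CPM and Tcf4 at 279 CPM, and in the QSC contractile-low cells at 2509 and 285 CPM. The part of these differences in the ratios of Id3 and Tcf4 was not tested.

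Early-response genes, which are known to be induced when cells are taken out of tissue, were also much higher in QSC. All 11 of the list were at least 2-fold lower in ASC among contractile-low cells, against 22.6% of all genes with at least 20 UMIs. Their median log2 ratio was -2.82, and they took 3.28% of UMIs in QSC and 0.401% in ASC. Within QSC the contractile-low cells were set on either side of the median share of these UMIs (3.17%), 185 cells each. Id1 stood at 315 CPM in cells above it and 144 CPM in the rest, a log2 ratio of 1.13 (0.68 to 1.59). The ratio was 0.54 (0.14 to 0.95) for Id2 and 0.33 (0.20 to 0.45) for Id3, which stood at 2797 CPM above it and 2229.5 CPM in the rest. Thus all 3 Id genes were higher where early-response transcripts were more frequent, and Id1 most. The intervals of Tcf3, Tcf4 and Tcf12 spanned 0. The median early-response share was 2.18% in the cells at or below the median and 4.10% in those above it. The part of the early-response state in the library ratios was not tested. This is a range and not a type, and 58 cells lay within 10% of the median.

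In ASC the contractile-low cells were set apart by a Myog UMI, present in 214 cells (median 13133.5 UMIs) and absent in 204 (median 5323.5 UMIs). Id3 stood at 352 CPM with Myog and 856 CPM without it, a log2 ratio of -1.28 (-1.39 to -1.17). Id1, Id2 and Tcf4 differed less, with log2 ratios of -0.42 (-0.63 to -0.20), -0.39 (-0.55 to -0.24) and -0.46 (-0.71 to -0.20). Tcf12 was the only member higher with Myog, at 52.6 and 32.8 CPM, a log2 ratio of 0.68 (0.25 to 1.14). Tcf3 was nearly level at 60.5 and 60.9 CPM (-0.35 to 0.34). Cells with a Myog UMI were deeper, and the part of depth in these ratios was not tested.

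Cells of the top 25% by share of UMIs from 15 S and G2/M genes, 105 ASC cells with a median of 23580.0 UMIs, showed another pattern. Tcf3 stood at 78.6 CPM in them and 45.2 CPM in the other 313 cells, a log2 ratio of 0.80 (0.47 to 1.13), and Id2 at 319.7 and 245 CPM, a log2 ratio of 0.38 (0.23 to 0.53). Id3 was lower in them by a log2 ratio of -0.91 (-1.03 to -0.80) and Tcf4 by -0.76 (-1.02 to -0.50). Id1 was level, at 147 and 149 CPM, and the interval of Tcf12 spanned 0. The other 313 cells were shallower, with a median of 6436 UMIs, and the part of depth in these ratios was not tested. Of the cells, 26 lay within 10% of the limit.

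Among cells with a Pax7 UMI, the transcription factor gene that marks satellite cells, the library difference of Id3 and Tcf4 was also present. The median depth of these cells was 2442.5 UMIs in QSC and 7804 UMIs in ASC, so they were not matched for depth. A Pax7 UMI is more readily found in a deeper cell, and the part of depth in these ratios was not tested. Id3 stood at 2387 CPM in 120 QSC cells and 710.3 CPM in 102 ASC cells, a log2 ratio of -1.75 (-1.89 to -1.61). Tcf4 stood at 274 and 122 CPM, a log2 ratio of -1.17 (-1.56 to -0.77). Id2 was higher in ASC here, at 210.3 and 318 CPM, a log2 ratio of 0.60 (0.21 to 1.004). Id1 stood at 224 and 161 CPM (-0.88 to -0.06).

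**Figure D5:**
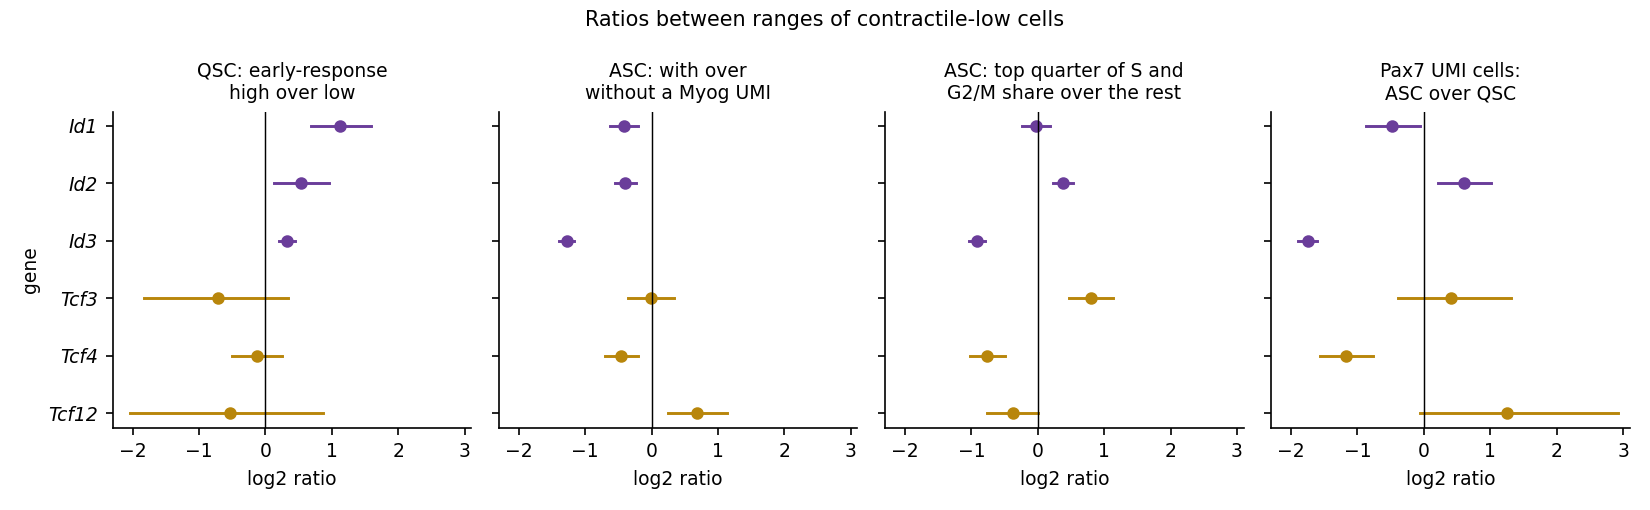
Log2 ratio of each gene between ranges of contractile-low cells, with 95% counting intervals, for Id genes (purple) and E-protein genes (ochre). Id3 lies at 0.33, -1.28, -0.91 and -1.75 from left to right, and Tcf12 lies right of 0 with its whole interval only in the comparison by Myog.

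Other genes of the pathway were counted from lists. Among all genes with at least 20 UMIs in contractile-low muscle cells, 22.6% were at least 2-fold lower and 18.5% at least 2-fold higher in ASC. Of 25 BMP signalling genes, 18 had at least 20 UMIs in contractile-low muscle cells, and 12 were at least 2-fold lower and 1 at least 2-fold higher in ASC, with a median log2 ratio of -1.39 against -0.06 for all 9968 genes with at least 20 UMIs. The ligand gene Bmp4 stood at 330 CPM in QSC (279 UMIs) and 53.5 CPM in ASC (283 UMIs), a log2 ratio of -2.62 (-2.87 to -2.38). Bambi, which encodes a pseudoreceptor that dampens BMP signals and is itself a BMP target, stood at 112 and 10.95 CPM, a log2 ratio of -3.36 (-3.85 to -2.87). Smad1, which encodes a BMP signal transducer, stood at 17.7 and 27.0 CPM with an interval from -0.16 to 1.48. The member past 2-fold in the other direction, Smurf1, rested on 1 QSC UMI.

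The partners and rivals of the E proteins were counted in the same cells. Of the 4 myogenic bHLH genes, Myod1 (149 and 416 CPM, log2 ratio 1.48) and Myog (4.79) were higher in ASC, Myf5 (519 and 65.2 CPM, -2.99) was lower, and the interval of Myf6 spanned 0. Of the 8 other bHLH genes with at least 20 UMIs, 6 were at least 2-fold lower and 2 at least 2-fold higher. Hes1, a Notch target that represses transcription, was lowest at -3.01 (-3.22 to -2.81), and Scx (3.56) and Hes6 (1.87), the latter known to counter Hes1, were higher. Of 14 differentiation targets of myogenic bHLH factors, 8 were at least 2-fold higher and 1 at least 2-fold lower. Actc1 (5.63), an actin gene, and Mymk (4.47), which encodes the fusion protein myomaker, were among the higher ones, and Cdkn1a (-1.29), which encodes a cell cycle inhibitor, was the lower one. All 15 S and G2/M genes were at least 2-fold higher. The shares of all genes with at least 20 UMIs in these cells were 22.6% lower and 18.5% higher.

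Of 3 TCF/LEF genes with similar names and at least 20 UMIs, 2 were at least 2-fold lower. The share of all genes with at least 20 UMIs in contractile-low muscle cells was 22.6%. Tcf7l2 stood at 46.1 CPM in QSC and 17.8 CPM in ASC and Tcf7l1 at 16.5 and 6.99 CPM, so both were well below Tcf4 in each library.

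Over 14 pairs of cluster and library with at least 20 cells, the genes most like Id3 by Pearson correlation of log2(CPM + 10) were Ssbp2 (0.98), Errfi1 (0.98), Ramp2 (0.98), Myf5 (0.98) and Ncald (0.98). Among the members, Tcf4 was the most like Id3 (0.89), and Tcf12 the least (0.56). The genes most like Id2 were Hsp90b1 (0.96), Dad1, Anxa5, Ptma and Dnajc10, and those most like Id1 were Actn4 (0.96), Antxr2, Mast4, Tnpo1 and Eif4g1. For Tcf3 they were Ccdc34 (0.93), Dek, Angptl4, Cdk4 and Rrm1, for Tcf4 Pdcd4 (0.96), Ripk1, Rsu1, Usp9x and Dpysl2, and for Tcf12 Snhg1 (0.96), Eif4b, Rpl18 and Scd2. These are descriptions over 4769 genes of points that share libraries and depth, and the pairs rank by few groups of cells.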

How the data were processed

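The deposited values are raw UMI counts per gene and barcode that the authors made with Cell Ranger. The file headers name version 6.0.2, while the submitters' processing notes name 7.1.0 and the mm10 build. The notes also name Seurat 4.1.0 and R 4.1.2. Libraries were made with 3' v2 chemistry, and how strand was handled is not given in the sources used here. The 6 genes and the gene lists were chosen with earlier results of these data known.

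UMIs were summed per library and class and scaled to 1000000. Zero counts were set to 3 UMIs (over all kept cells 2.58 CPM in QSC and 0.337 CPM in ASC) for the shares of genes past 2-fold. Clustering used Seurat 5.3.0 (R 4.3.3) and 1081 variable genes without the 6 members and Id4, regressing on UMI number and mitochondrial share, with 10 principal components and resolution 0.6. A cluster was named "-like" after the type (of 14) with most markers in at least 10% of its cells and at least 2-fold higher than elsewhere, at least 3, with 1 or more among its 10 leading genes. This rule and the contractile limit of 5% were written after the data were seen. No doublets were removed. Intervals were computed with scipy 1.17.1 and checked on simulated data, and TMM factors with edgeR 4.0.16. Named genes were the members, Id4, up to 3 highest and 3 lowest of each list with at least 20 UMIs, and the 5 most alike, of which 1 is not reported here. Pax7 and Myog served as checks of the labels. Alternatives were other mitochondrial, gene, contractile and depth limits, scalings, thinnings and resolutions.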

Additional observations from a re-analysis of the deposited data

Results flagged for a closer look

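Barcodes outside the limits on genes and mitochondrial UMIs also held the members, and nothing else was flagged. In the 250 left-out QSC barcodes Id3 stood at 457 CPM, Id2 at 92.4 CPM, Tcf4 at 59.8 CPM and Id1 at 32.6 CPM. In the 182 left-out ASC barcodes Id3 stood at 207 CPM, Id2 at 134 CPM, Tcf4 at 116 CPM, Id1 at 67.1 CPM, Tcf12 at 30.5 CPM and Tcf3 at 24.4 CPM. Id3 thus had the highest estimate in both sets of left-out barcodes, at lower levels than in the kept cells of the same library. In ASC its interval (144 to 290, 34 UMIs) overlapped those of Id2 (84.1 to 203) and Tcf4 (69.8 to 181), so their order there is not settled.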

How the results depend on the processing

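All values here are log2 ratios of ASC over QSC unless stated. In all kept cells, the limit of 1% mitochondrial UMIs gave 0.80 for Id1 and 0.76 for Tcf4, both of opposite sign, 1.69 for Id2 and -0.47 for Id3, from 0 to 25 QSC UMIs per gene. That limit left 1 contractile-low QSC cell, so no value is given for that class. The limit of 5% gave -2.34 for Id3. Restriction to contractile-low cells gave -0.62 for Id1, -2.28 for Id3 and 0.96 for Tcf12. TMM scaling gave -0.57 for Id1, 0.36 for Id2, -2.17 for Id3 and -1.34 for Tcf4, and median-of-ratios size factors gave -0.56, 0.37, -2.16 and -1.33. With every kept cell weighing the same, the values were -1.53 for Id1, -0.60 for Id2, -2.69 for Id3, -0.58 for Tcf3 and -0.46 for Tcf12, and in contractile-low muscle cells -1.63 for Id3 and -0.95 for Tcf4. TMM and size-factor scaling raise every log2 ratio by over 0.3. In contractile-low muscle cells, TMM scaling gave -0.30 for Id1, 0.48 for Id2, -1.96 for Id3 and -1.17 for Tcf4, and leaving out the 2% deepest cells gave -2.13 for Id3. The ratio of Id to E-protein UMIs under the 1% limit was 6.4 in QSC (2.475 to 21.04) and 3.54 in ASC (2.998 to 4.185). These intervals overlapped, so the lower balance in ASC was not settled under that limit. TMM scaling (1.28) and a contractile limit of 2% (1.06) put Tcf12 past 2-fold higher in contractile-low muscle cells. The other log2 ratios and Id to E-protein ratios under the alternatives run, leaving out barcodes shared by the libraries (added after seeing the data) among them, stayed within their counting intervals. Without the shared barcodes, however, the interval of Id2 in contractile-low muscle cells (0.02 to 0.45) no longer spanned 0. With at least 5 in place of 20 UMIs, the share of genes at least 2-fold lower was 29.9% in all kept and 29.2% in contractile-low muscle cells, and the share higher 13.5% and 15.5%. Shares of cells moved with the thinning depth. The cause of these shifts was not tested. No paired analysis was possible because each group has 1 library. Depth limits Tcf3 and Tcf12 most, with 35 and 20 UMIs in contractile-low QSC cells.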
